A study of Homo sapiens with 12 samples.

Results

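The 51 genes described here encode the machinery and supply lines of DNA replication and were chosen by symbol. They comprise 14 genes of origin licensing, 8 of origin firing, 9 of the replicative polymerases, 11 of the sliding clamp, single-strand binding and fragment joining, 4 of nucleotide supply and 5 S-phase regulators. All 51 were found in both deposited tables, which hold 30106 symbols for KYSE410 and 30703 for KYSE150, with 26115 in common. Both are established human esophageal squamous carcinoma lines labelled wild type. Messenger RNA was sequenced after culture in hypoxia (0.5% oxygen, 48 h) or in normoxia (21% oxygen), and the 4 groups, KYSE410 hypoxia, KYSE410 normoxia, KYSE150 hypoxia and KYSE150 normoxia, hold 3 libraries each. The normoxic libraries carry a time point of 0 h, while the series' design text gives both oxygen levels the same incubation, so the length of normoxic culture is not settled. The comparison asks how the replication genes of each line differed between hypoxia and normoxia, and whether the difference was equal in both lines.

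Replication starts in G1, when the origin recognition complex (ORC) with CDC6 and CDT1 loads the ring-shaped MCM2-7 helicase onto origins, and geminin (GMNN) binds CDT1 and stops a second loading. In S phase the kinase CDC7 with its activator DBF4 lets CDC45 and the GINS complex join the helicase, and polymerases alpha, delta and epsilon copy the DNA with the clamp PCNA, its loader RFC and the single-strand binding protein RPA. Ribonucleotide reductase (RRM1 and RRM2), thymidylate synthase (TYMS) and thymidine kinase (TK1) supply deoxynucleotides, and the E2F transcription factors drive transcription of many of these genes at the G1 to S transition.

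Promoter sequence is shown first because E2F sites are the best known shared feature of replication genes. RefSeq promoters (GRCh38.p14) were matched by symbol for 45 of the 51 genes, and the 250 bases before the start were searched for 4 E2F words, TTTCCCGC, TTTCGCGC, TTTGCCGC and TTTGGCGC, on both strands. An E2F word was present in 16 of the 45 promoters (35.6%), against 4.63% of 10086 promoters of genes tested in either line and 2.79% of all 27305 promoters. The hypoxia-response core ACGTG, also read on both strands, was present in 10 of 45 (22.2%), against 23.6% of promoters of tested genes and 18.7% of all promoters. The 5 windows below stand for genes that were higher in hypoxia in both lines (POLA1, MCM3) or that fell in KYSE150 (MCM6, E2F2). PCNA was called in opposite directions in the 2 lines, its KYSE150 call at the threshold. Capitals mark the E2F words, each sequence runs 5′ to 3′ on the gene's strand, and bases in any annotated exon are left out.
POLA1: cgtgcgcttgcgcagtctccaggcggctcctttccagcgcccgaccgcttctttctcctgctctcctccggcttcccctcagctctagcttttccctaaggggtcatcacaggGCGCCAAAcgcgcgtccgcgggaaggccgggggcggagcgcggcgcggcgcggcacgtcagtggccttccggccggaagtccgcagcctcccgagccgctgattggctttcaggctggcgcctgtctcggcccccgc
MCM3: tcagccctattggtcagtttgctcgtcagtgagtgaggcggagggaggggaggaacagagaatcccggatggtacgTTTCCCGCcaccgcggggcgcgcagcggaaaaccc
PCNA: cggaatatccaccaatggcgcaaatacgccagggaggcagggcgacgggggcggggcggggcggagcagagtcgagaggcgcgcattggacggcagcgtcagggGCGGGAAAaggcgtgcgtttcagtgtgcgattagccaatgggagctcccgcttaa
MCM6: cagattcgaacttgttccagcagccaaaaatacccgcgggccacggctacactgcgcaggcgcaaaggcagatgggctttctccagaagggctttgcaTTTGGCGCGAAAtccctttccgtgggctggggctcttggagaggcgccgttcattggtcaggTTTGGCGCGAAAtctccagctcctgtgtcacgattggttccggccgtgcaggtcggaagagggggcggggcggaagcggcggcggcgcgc
E2F2: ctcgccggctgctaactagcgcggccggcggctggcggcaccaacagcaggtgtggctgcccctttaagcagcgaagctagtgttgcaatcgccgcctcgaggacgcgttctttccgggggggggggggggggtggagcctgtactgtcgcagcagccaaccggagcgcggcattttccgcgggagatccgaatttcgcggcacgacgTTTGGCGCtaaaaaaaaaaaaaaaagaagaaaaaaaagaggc

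The windows lie at chrX:24693668-24693917 (plus strand) for POLA1, chr6:52284882-52284992 (minus) for MCM3, chr20:5126627-5126785 (minus) for PCNA, chr2:135876444-135876693 (minus) for MCM6 and chr1:23531234-23531483 (minus) for E2F2. MCM6 held 4 matches in 2 stretches, each a pair of overlapping words on opposite strands, that begin 152 and 90 bases before the start. In PCNA the word began 59 bases before the start, in E2F2 42 bases, in POLA1 137 bases and in MCM3 174 bases. The word was found in 7 of the 13 matched promoters of genes called higher in both lines (MCM3, ORC3, MCM7, CDT1, TYMS, LIG1 and POLA1). It was found in 2 of 8 called lower in both (POLA2 and UHRF1) and in 3 of 8 that were called lower in KYSE150 and higher in KYSE410 (RFC3, GINS2 and PCNA). ACGTG was found in 4 of 13, 0 of 8 and 2 of 8 of these promoters, in the same order. Whether either word goes with the direction of change was not tested. A match describes the letters of the window and is not evidence of binding.

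Expression was deposited as FPKM (fragments scaled to transcript length and library total), so levels are given per transcript length. Column sums lay between 351501 and 425094 FPKM, and the depth of each library is unknown. Changes were tested with limma on log2(FPKM + 1) over every gene averaging 1 FPKM or more, with p adjusted by Benjamini-Hochberg and a call made under 0.05. The log2 change on this scale understates the change of low genes. The labels do not say whether replicates are separate cultures, so a p measures the spread between these libraries, which may be technical. In KYSE410 the sample-sheet numbers run 56 to 58 in hypoxia and 38 to 40 in normoxia, and in KYSE150 53 to 55 and 50 to 52. The labels do not say whether the numbers mark separate library sets, so oxygen and any such set cannot be told apart in KYSE410. KYSE150 normoxia replicate 2 stood apart from its group, with a column sum of 413967 FPKM, against 370573 and 366156 FPKM. Of 10 epithelial and squamous markers, 8 averaged above 1 FPKM in both KYSE410 groups but 4 in both KYSE150 groups, where the squamous markers KRT5, KRT14 and TP63 were under 1 FPKM. SOX2 was under 1 FPKM in both lines. Of 5 fibroblast markers, COL1A1 averaged 4.64 FPKM in KYSE150 hypoxia and 5.89 FPKM in KYSE150 normoxia, PDGFRB 0.740 and 1.62 FPKM in the same groups, and the other 3 were under 1 FPKM in every group. None of the 5 reached 1 FPKM in KYSE410. PTPRC, the pan-leukocyte marker, and the 3 endothelial markers averaged at most 0.0583 FPKM in every group, whereas the macrophage marker CD68 was above 1 FPKM in both lines.

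In KYSE410 most replication genes were higher in hypoxia. Of the 50 genes tested, 33 rose and 12 fell, with the largest rises in the origin licensing genes ORC1 and CDT1 and the largest fall in the kinase activator DBF4. The background was 31.2% of 12054 tested genes called higher, 51.9% called lower and 83.1% called either way. Their median log2 change was 0.49, against -0.21 over all tested genes. Hypoxia and normoxia libraries did not overlap for 33 genes that were higher and 13 that were lower in hypoxia, and overlapped for 5, where 31.9% and 52.7% of all tested genes were apart in those directions, 84.6% in all. After median-of-ratios scaling, which moved the all-gene median by 0.21, 5010 genes were higher and 4998 lower in KYSE410, against 3763 and 6254 as deposited. Under that scaling 36 of the replication genes were called higher and 9 lower, and with a common sum of FPKM 27 and 16. Over all 12054 tested genes the common sum gave 2746 higher and 7503 lower. In these bulk samples a different share of cells in S phase and a different amount of a gene's RNA per cell cannot be told apart.

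In KYSE150 the replication genes divided. Of 51 tested, 15 rose and 22 fell in hypoxia (29.4% and 43.1%), against 23.5% and 38.8% of 12692 tested genes (62.3% either way), so both shares lay near the background. The median log2 change was -0.10, beside -0.13 over all tested genes. The groups did not overlap for 18 genes that were higher and 24 that were lower in hypoxia, where 27.0% and 42.6% of all tested genes were apart, 69.6% in all. Without normoxia replicate 2, 18 were called higher and 22 lower, where 3661 and 5756 of 12678 tested genes were. The balance of calls turned after median-of-ratios scaling, under which 21 of the replication genes were called higher and 15 lower. Over all genes that scaling, which moved the median by 0.13, gave 3905 higher and 3815 lower, against 2981 and 4925 as deposited.

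**Figure D1:**
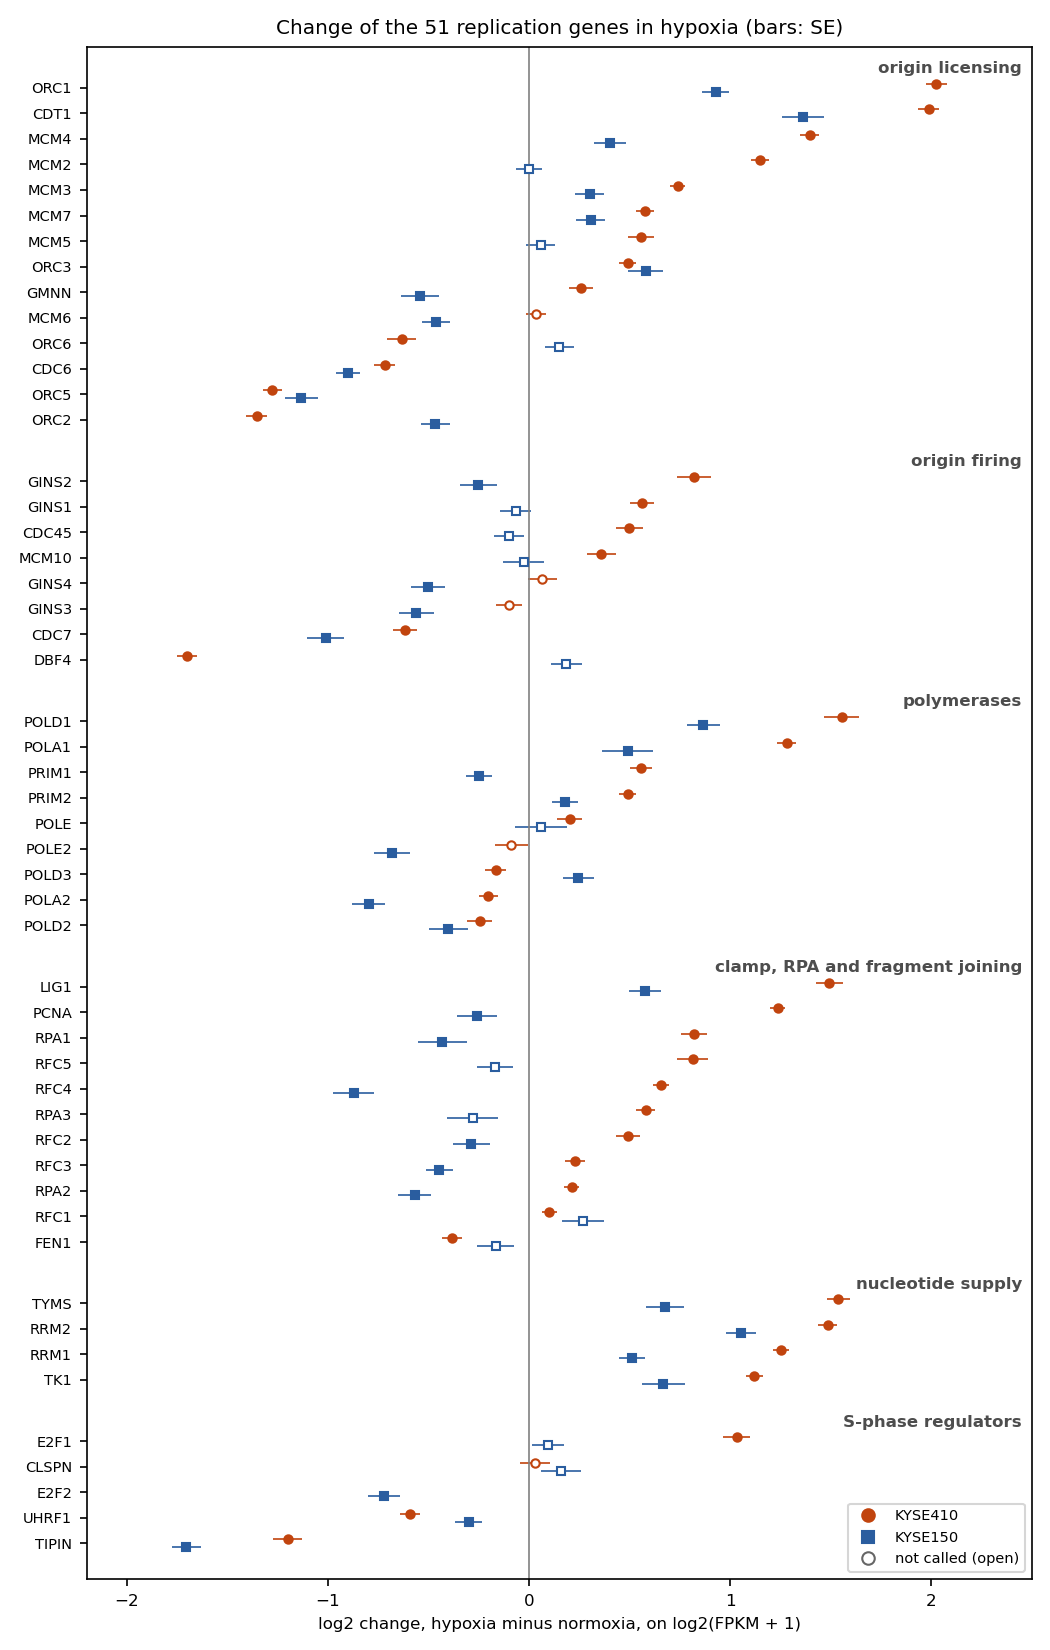
Log2 change in hypoxia relative to normoxia for each of the 51 genes on the log2(FPKM + 1) scale, with KYSE410 as orange circles and KYSE150 as blue squares, grouped by role; bars are SE and open symbols were not called. KYSE410 values run from -1.70 for DBF4 to 2.03 for ORC1 and KYSE150 values from -1.70 for TIPIN to 1.36 for CDT1, and all 4 nucleotide supply genes lie right of 0 in both lines.

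Across both lines, 14 genes were called higher in each, namely ORC1, ORC3, CDT1, MCM3, MCM4, MCM7, POLA1, PRIM2, POLD1, LIG1, TYMS, RRM1, RRM2 and TK1 (background 13.8% of 10951 genes tested in both). Another 8 were called lower in each, namely ORC2, ORC5, CDC6, CDC7, POLA2, POLD2, UHRF1 and TIPIN (background 29.4%). The 9 genes GMNN, GINS2, PRIM1, PCNA, RFC2, RFC3, RFC4, RPA1 and RPA2 were called higher in KYSE410 and lower in KYSE150 (background 4.94%), and POLD3 was the 1 gene with the opposite pair of calls (background 5.37%). Of these opposite pairs, that of RFC4 alone was kept in every setting run. After median-of-ratios scaling the KYSE150 falls of GINS2, PRIM1, PCNA, RFC2 and RPA1 were lost. With a common sum of FPKM the KYSE410 rises of GMNN, RFC3 and RPA2 were lost. Over the 50 genes tested in both lines, the changes in KYSE410 and KYSE150 had a Pearson r of 0.69 and a Spearman rho of 0.65. This describes genes that share the same 12 libraries and their normalization.

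The response itself differed between lines for most of the genes. The difference, KYSE410 change minus KYSE150 change, was called positive for 39 of 51 genes and negative for 5 (limma interaction, adjusted p under the threshold), against 27.3% and 36.0% of 12653 genes (63.3% either way). The median difference was 0.57, beside -0.09 over all genes tested. The 5 negative genes were ORC2, ORC6, DBF4, POLD3 and UHRF1. With a common sum of FPKM 31 differences were positive and 9 negative, where 2353 and 6024 of all 12653 genes were. Each of these differences contains the KYSE410 change, where oxygen and any library set cannot be told apart.

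**Figure D2:**
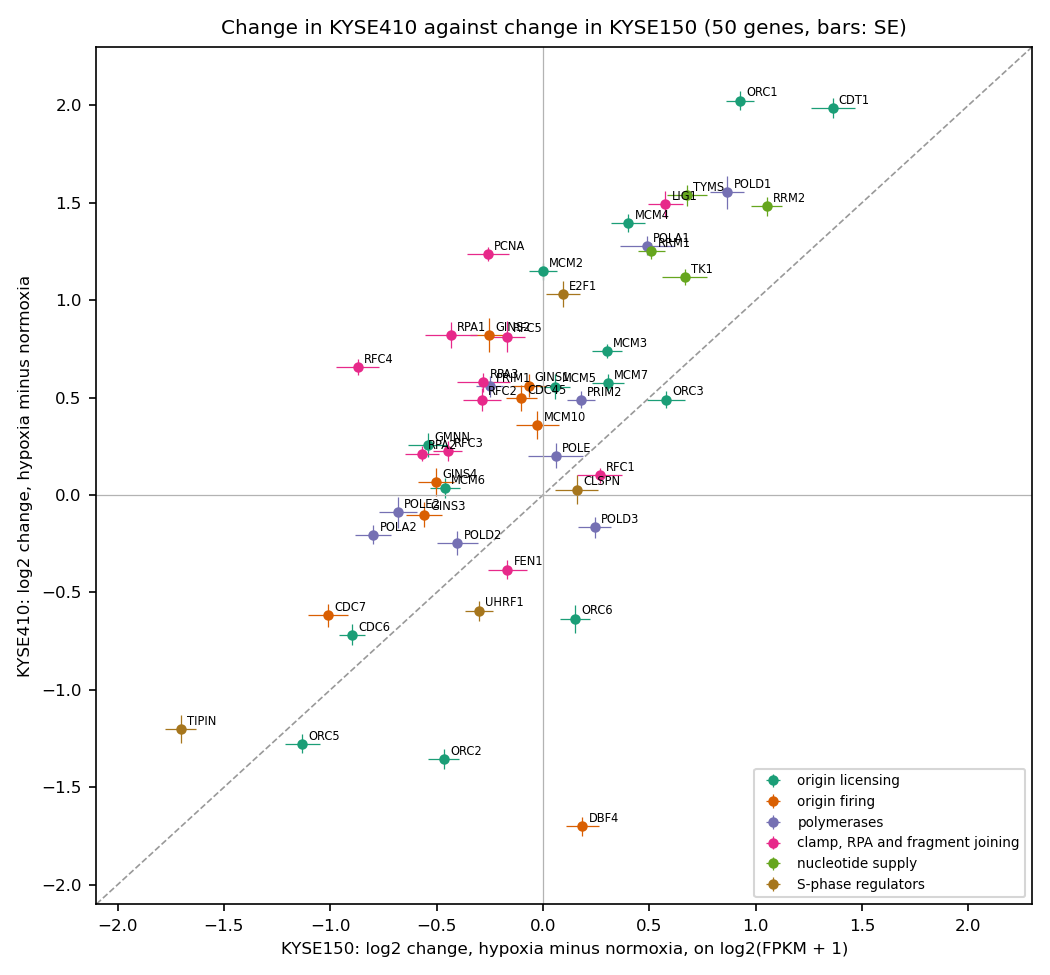
Log2 change in KYSE410 (vertical) against that in KYSE150 (horizontal) for the 50 genes tested in both lines, coloured by role, with SE bars; the dashed line marks equal change. Most genes lie above the dashed line, PCNA and RFC4 lie in the upper left, and DBF4 lies farthest below the line with a difference of -1.89.

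Origin licensing divided within its own complexes. In KYSE410, 9 of 14 genes rose and 4 fell in hypoxia (64.3% and 28.6%), against 31.2% and 51.9% of all tested genes. In KYSE150 6 rose and 5 fell (42.9% and 35.7%), against 23.5% and 38.8%, so the share that fell there lay near the background. ORC1, CDT1, MCM3, MCM4 and MCM7 rose in both lines, while ORC2, ORC5 and the loader CDC6 fell in both lines. Between lines, the difference in response was positive for 10 of the 14 and negative for 2, against 27.3% and 36.0% of all tested genes.

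ORC1 (chr1:52372829-52404459 on hg38, GENCODE 29, as are all gene positions here) encodes the largest ORC subunit and the one whose abundance is regulated through the cell cycle in human cells. It had 13.6, 13.1 and 13.5 FPKM in KYSE410 hypoxia, against 2.47, 2.49 and 2.67 FPKM in KYSE410 normoxia. In KYSE150 ORC1 had 25.1, 25.3 and 26.5 FPKM in hypoxia, against 12.8, 12.8 and 13.4 FPKM in normoxia. The groups were apart in both lines, with log2 changes of 2.03 ± 0.05 (SE) in KYSE410 and 0.93 ± 0.07 in KYSE150 (limma, adjusted p = 8.807e-09 and 1.843e-05). The rise was larger in KYSE410 by 1.10 ± 0.07 (limma, adjusted p = 2.124e-07).

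ORC2, a core subunit of the complex, moved against ORC1. Its level was 8.24, 7.85 and 8.55 FPKM in KYSE410 hypoxia and 21.7, 22.2 and 23.8 FPKM in KYSE410 normoxia. In KYSE150 it was 8.53, 8.90 and 9.17 FPKM in hypoxia and 13.1, 12.5 and 12.3 FPKM in normoxia. All hypoxia libraries lay below all normoxia libraries of their line, and the fall of 1.36 ± 0.05 in KYSE410 was larger than that of 0.47 ± 0.07 in KYSE150 by -0.89 ± 0.08 (limma, adjusted p = 2.489e-06).

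ORC5, an ATP-binding core subunit, also fell in both lines. KYSE410 libraries had 11.9, 12.6 and 13.3 FPKM in hypoxia against 31.1, 32.3 and 32.7 FPKM in normoxia. KYSE150 libraries had 10.9, 11.7 and 12.3 FPKM in hypoxia against 27.2, 28.1 and 24.7 FPKM in normoxia. The groups were apart in each line, and the changes of -1.28 ± 0.05 and -1.13 ± 0.08 differed by -0.14 ± 0.09, which did not pass (limma, adjusted p = 0.190). That difference passed with a common sum (-0.39, adjusted p = 0.00194 in limma) and with a length and GC trend removed (-0.39, adjusted p = 3.905e-04). ORC3 rose by 0.49 in KYSE410 and 0.58 in KYSE150, and ORC6, the smallest subunit, fell by 0.63 in KYSE410 and changed by 0.15 in KYSE150 without passing (limma, adjusted p = 0.101), although it passed without normoxia replicate 2 (0.19, adjusted p = 0.00965). Summed over these 5 ORC genes, the level was 61.8 ± 1.24 FPKM in KYSE410 hypoxia and 85.0 ± 0.486 FPKM in KYSE410 normoxia (SD, n = 3 each). In KYSE150 the sum was 84.1 ± 2.60 FPKM in hypoxia and 82.3 ± 2.09 FPKM in normoxia, so the sums overlapped in KYSE150 while single subunits moved apart.

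CDT1 (chr16:88803213-88809258), the licensing factor that is destroyed at the onset of S phase, showed the second largest rise of the 51 genes in KYSE410 and the largest in KYSE150. It had 17.7, 18.5 and 18.0 FPKM in KYSE410 hypoxia and 4.06, 3.57 and 3.83 FPKM in KYSE410 normoxia. In KYSE150 CDT1 had 77.2, 80.5 and 79.5 FPKM in hypoxia and 28.2, 35.5 and 27.4 FPKM in normoxia. The groups were far apart in both lines, with changes of 1.99 ± 0.05 in KYSE410 and 1.36 ± 0.10 in KYSE150 (limma, adjusted p = 1.137e-08 and 2.416e-05), a difference of 0.62 ± 0.12 (adjusted p = 6.785e-04).

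Its inhibitor geminin (GMNN) did not follow. GMNN averaged 46.2 ± 1.87 FPKM in KYSE410 hypoxia and 38.5 ± 3.25 FPKM in KYSE410 normoxia (SD, n = 3 each), a rise of 0.26. In KYSE150 it averaged 48.7 ± 0.728 FPKM in hypoxia and 71.7 ± 8.93 FPKM in normoxia, a fall of 0.54. The KYSE410 rise was lost when the libraries were scaled to a common sum (0.021, adjusted p = 0.766 in limma), and its sign turned after removal of a trend with length and GC (-0.0047). The level of CDT1 over that of GMNN was 0.376 to 0.402 in KYSE410 hypoxia libraries, against 0.0960 to 0.105 in KYSE410 normoxia libraries. In KYSE150 this ratio was 1.61 to 1.65 in hypoxia, against 0.414 to 0.433 in normoxia, and the groups did not overlap in either line. CDC6, which loads the helicase together with CDT1, fell by 0.72 ± 0.05 in KYSE410 and 0.90 ± 0.06 in KYSE150. The CDC6 difference of 0.18 (adjusted p = 0.0402 in limma) was lost without any 1 of 9 of the 12 libraries (adjusted p = 0.0602 to 0.10).

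The 6 genes of the MCM2-7 ring, which act as 1 hexamer, changed by unequal amounts. In KYSE410, MCM4 rose by 1.39, MCM2 by 1.15, MCM3 by 0.74, MCM7 by 0.58 and MCM5 by 0.56, while MCM6 changed by 0.035 (limma, adjusted p = 0.547). MCM6 was called higher after median-of-ratios scaling (0.28, adjusted p = 0.00144 in limma) and lower with a common sum (-0.20, adjusted p = 0.00523). In KYSE150, MCM4 rose by 0.40, MCM7 by 0.31 and MCM3 by 0.30, MCM6 fell by 0.46, and MCM5 and MCM2 did not pass. The sum of the 6 was 400.1 ± 11.6 FPKM in KYSE410 hypoxia and 226 ± 9.81 FPKM in KYSE410 normoxia. In KYSE150 it was 552 ± 3.63 FPKM in hypoxia and 490.4 ± 6.32 FPKM in normoxia (SD, n = 3 each). MCM7 was the highest and MCM5 the lowest of the 6 in both KYSE150 groups, and MCM3 was the highest and MCM5 the lowest in both KYSE410 groups.

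MCM4 and MCM2 show the contrast between lines. MCM4 had 99.2, 98.8 and 105 FPKM in KYSE410 hypoxia and 38.9, 35.5 and 39.05 FPKM in KYSE410 normoxia. In KYSE150 MCM4 had 121, 120 and 118 FPKM in hypoxia and 95.1, 82.1 and 94.4 FPKM in normoxia. The groups were apart in both lines, by more in KYSE410 (difference 0.99 ± 0.09, limma, adjusted p = 2.475e-06). MCM2 had 45.2, 45.0 and 47.3 FPKM in KYSE410 hypoxia and 20.8, 19.1 and 20.4 FPKM in KYSE410 normoxia. In KYSE150 MCM2 had 122, 123 and 123 FPKM in hypoxia and 121, 121 and 126 FPKM in normoxia, groups that overlapped. The MCM2 difference in response was 1.15 ± 0.07 (limma, adjusted p = 8.757e-08).

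**Figure D3:**
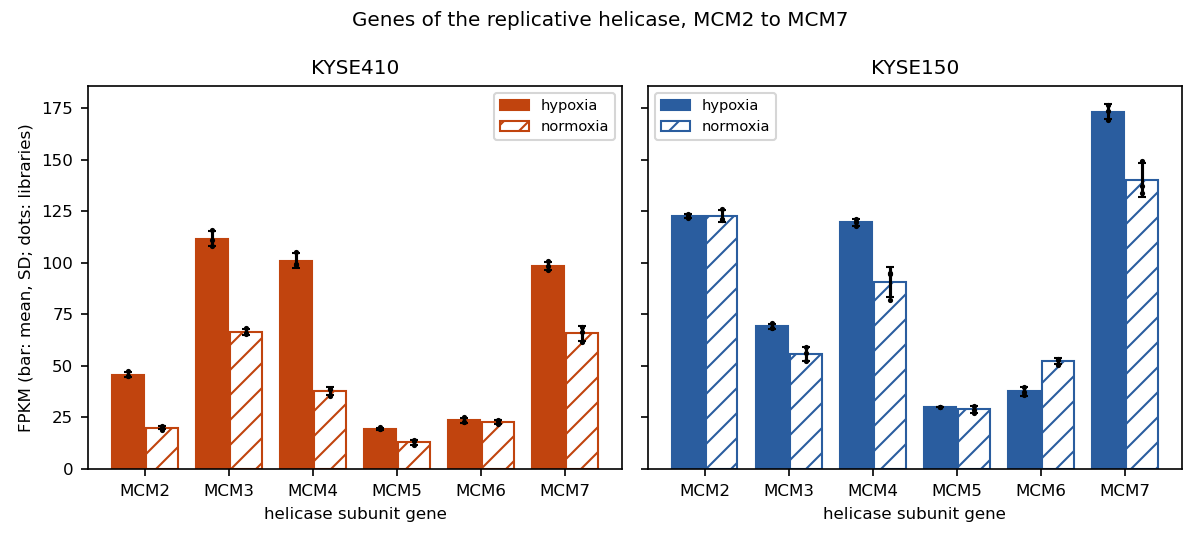
FPKM of MCM2 to MCM7, the helicase ring genes, in KYSE410 (left) and KYSE150 (right); filled bars are hypoxia and hatched bars normoxia, with SD and the 3 libraries as dots. All genes other than MCM6 stand higher in hypoxia in KYSE410, and in KYSE150 MCM2 has nearly equal bars while MCM6 stands lower in hypoxia.

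Origin firing genes were called higher in KYSE410 in 4 of 8 cases (GINS2, GINS1, CDC45 and MCM10) and lower in 2 (CDC7 and DBF4). In KYSE150, 4 fell (CDC7, GINS3, GINS4 and GINS2) and 0 rose by limma at the adjusted threshold, although DBF4 had non-overlapping groups. The background was 31.2% higher and 51.9% lower in KYSE410, and 23.5% higher and 38.8% lower in KYSE150. The difference in response was called for all 8, positive for 7 and negative for DBF4 (27.3% and 36.0% of all tested genes). That of MCM10 was lost without KYSE410 hypoxia replicate 3 (0.33, adjusted p = 0.0526 in limma). CDC45, the helicase cofactor, rose by 0.50 ± 0.07 and MCM10, which helps to activate the helicase, by 0.36 ± 0.07 in KYSE410. In KYSE150 CDC45 changed by -0.10 and MCM10 by -0.026, and neither passed.

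DBF4 (chr7:87876216-87909541), the activating subunit of the CDC7 kinase, had the largest fall in KYSE410. Its level was 5.97, 6.47 and 5.83 FPKM in KYSE410 hypoxia and 22.0, 22.7 and 21.4 FPKM in KYSE410 normoxia. In KYSE150 it was 11.3, 10.9 and 12.2 FPKM in hypoxia and 9.81, 10.5 and 9.52 FPKM in normoxia. The KYSE410 groups were far apart (log2 change -1.70 ± 0.05, limma, adjusted p = 1.842e-08). In KYSE150 hypoxia was higher by 0.19 ± 0.08, which did not pass (adjusted p = 0.0704) but did without normoxia replicate 2 (0.22, adjusted p = 0.0129 in limma). The difference in response of -1.89 ± 0.09 was the largest of the 51 in absolute size (adjusted p = 1.566e-08). DBF4 overlaps SLC25A40 on the opposite strand and has a pseudogene, and the strand setting of the counting is not given in the sources used here.

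CDC7, the kinase itself, fell in both lines. It had 10.2, 12.01 and 11.5 FPKM in KYSE410 hypoxia and 17.9, 17.8 and 17.5 FPKM in KYSE410 normoxia. In KYSE150 CDC7 had 8.39, 9.49 and 10.1 FPKM in hypoxia and 20.7, 18.1 and 20.5 FPKM in normoxia. The changes were -0.62 ± 0.06 and -1.01 ± 0.09 with no overlap between groups. The level of DBF4 over that of CDC7 was 0.508 to 0.589 in KYSE410 hypoxia, against 1.23 to 1.28 in KYSE410 normoxia. In KYSE150 the ratio moved the other way, at 1.15 to 1.34 in hypoxia against 0.465 to 0.583 in normoxia.

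The 4 GINS genes, whose products form 1 complex, changed by unequal amounts in each line. GINS2 had 9.86, 9.49 and 11.3 FPKM in KYSE410 hypoxia and 5.78, 4.71 and 5.57 FPKM in KYSE410 normoxia. In KYSE150 GINS2 had 12.9, 13.1 and 12.3 FPKM in hypoxia and 14.1, 17.4 and 14.9 FPKM in normoxia. GINS2 thus rose by 0.82 in KYSE410 and fell by 0.25 in KYSE150, where the adjusted p was 0.0417 in limma and the call was lost after median-of-ratios scaling (-0.11, adjusted p = 0.349) and without normoxia replicate 3 or any 1 hypoxia library (adjusted p = 0.0639 to 0.133). GINS1 had 6.48, 7.21 and 6.38 FPKM in KYSE410 hypoxia, above the 4.09, 4.28 and 4.24 FPKM of KYSE410 normoxia. Its KYSE150 levels of 7.49, 6.97 and 6.69 FPKM in hypoxia and 7.33, 7.59 and 7.36 FPKM in normoxia overlapped.

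GINS3 and GINS4 were called in KYSE150 and not in KYSE410, with differences in response of 0.46 ± 0.10 and 0.57 ± 0.11 (limma, adjusted p = 0.00222 and 7.296e-04). GINS3 had 6.18, 5.52 and 5.90 FPKM in KYSE410 hypoxia and 5.83, 6.60 and 6.67 FPKM in KYSE410 normoxia, which overlapped. In KYSE150 GINS3 had 4.39, 3.68 and 3.79 FPKM in hypoxia, below the 6.35, 6.33 and 6.19 FPKM of normoxia. GINS4 averaged 3.53 ± 0.0382 FPKM in KYSE410 hypoxia and 3.34 ± 0.353 FPKM in KYSE410 normoxia, and these libraries overlapped too. In KYSE150 GINS4 had 6.60, 7.16 and 7.37 FPKM in hypoxia, below the 10.6, 9.54 and 11.1 FPKM of normoxia. The KYSE410 calls depended on scaling. GINS3 was called lower there with a common sum (-0.31, adjusted p = 0.00181 in limma), where its difference no longer passed (0.24, adjusted p = 0.0721). GINS4 was called higher in KYSE410 after median-of-ratios scaling (0.26, adjusted p = 0.0119 in limma). The sum over the 4 GINS genes was 26.3 ± 0.710 FPKM in KYSE410 hypoxia and 19.3 ± 0.753 FPKM in KYSE410 normoxia, and 30.8 ± 0.643 FPKM in KYSE150 hypoxia and 39.6 ± 1.27 FPKM in KYSE150 normoxia (SD, n = 3 each).

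Among the polymerases, POLD1, POLA1 and PRIM2 rose in both lines while the accessory subunits POLA2 and POLD2 fell in both. In KYSE410, 5 of 9 genes rose (POLD1, POLA1, PRIM1, PRIM2 and POLE) and 3 fell (POLD2, POLA2 and POLD3). In KYSE150, 4 rose (POLD1, POLA1, POLD3 and PRIM2) and 4 fell (POLA2, POLE2, POLD2 and PRIM1). The background was 31.2% higher and 51.9% lower in KYSE410, and 23.5% higher and 38.8% lower in KYSE150. The difference in response was positive for 6 and negative for POLD3 (27.3% and 36.0% of all tested genes).

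POLD1 (chr19:50384204-50418016), the catalytic subunit of the lagging-strand polymerase delta, led this role. It had 19.2, 17.6 and 20.1 FPKM in KYSE410 hypoxia and 6.64, 5.12 and 5.68 FPKM in KYSE410 normoxia. In KYSE150 POLD1 had 15.7, 14.8 and 17.0 FPKM in hypoxia and 7.91, 8.69 and 8.05 FPKM in normoxia. The groups were apart in both lines, with changes of 1.55 ± 0.09 and 0.87 ± 0.08 (limma, adjusted p = 4.775e-07 and 6.693e-05). Its partner POLD2 fell by 0.25 in KYSE410 and 0.40 in KYSE150. After median-of-ratios scaling the POLD2 change was 0.0029 in KYSE410 and -0.25 in KYSE150, and neither passed.

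POLA1, which extends RNA primers with DNA, also rose in both lines. KYSE410 libraries had 16.7, 16.8 and 16.9 FPKM in hypoxia and 6.01, 6.34 and 6.68 FPKM in normoxia. KYSE150 libraries had 34.2, 37.2 and 36.6 FPKM in hypoxia and 28.8, 20.3 and 27.7 FPKM in normoxia. The rise was 1.28 ± 0.05 in KYSE410 and 0.49 ± 0.13 in KYSE150, where normoxia replicate 2 was the lowest library. POLA2, its regulatory partner, went the other way. It had 5.75, 5.59 and 5.80 FPKM in KYSE410 hypoxia and 6.77, 6.62 and 6.80 FPKM in KYSE410 normoxia. In KYSE150 POLA2 had 15.6, 14.7 and 13.6 FPKM in hypoxia and 24.8, 28.4 and 25.4 FPKM in normoxia. The KYSE150 fall of 0.80 ± 0.08 passed in every setting run, whereas the KYSE410 fall of 0.20 ± 0.05 turned to 0.012 after median-of-ratios scaling.

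The primase subunits differed from each other in KYSE150. PRIM1, the catalytic subunit, had 30.4, 28.5 and 30.9 FPKM in KYSE410 hypoxia and 21.5, 19.1 and 19.5 FPKM in KYSE410 normoxia. In KYSE150 PRIM1 had 29.03, 30.1 and 29.9 FPKM in hypoxia and 35.4, 34.6 and 36.4 FPKM in normoxia, groups that lay apart in the opposite order. Its exons overlap NACA on the same strand, so its level is uncertain, and the KYSE150 fall of 0.25 was lost after median-of-ratios scaling (-0.096, adjusted p = 0.226 in limma) and after removal of a length and GC trend (-0.084, adjusted p = 0.310). Exons of POLD1, POLA2, POLD3, RRM2 and TIPIN also overlap another annotated gene on the same strand, so this limit holds for their levels too. PRIM2, the regulatory subunit, had 21.2, 22.1 and 22.7 FPKM in KYSE410 hypoxia and 15.9, 15.4 and 14.8 FPKM in KYSE410 normoxia. In KYSE150 PRIM2 had 20.9, 20.4 and 21.8 FPKM in hypoxia and 18.2, 18.8 and 18.4 FPKM in normoxia, a rise of 0.18 at an adjusted p of 0.0449 in limma that was lost without any 1 KYSE150 library other than normoxia replicate 2 (adjusted p = 0.0875 to 0.165).

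Polymerase epsilon copies the leading strand. Its catalytic gene POLE rose by 0.20 ± 0.06 in KYSE410, a call lost without KYSE410 hypoxia replicate 3 or normoxia replicate 2 (adjusted p = 0.0556 and 0.0514 in limma), and did not pass in KYSE150. POLE2, its second subunit, had 3.57, 4.43 and 4.11 FPKM in KYSE410 hypoxia and 4.13, 4.74 and 4.18 FPKM in KYSE410 normoxia, which overlapped. In KYSE150 POLE2 had 5.91, 5.72 and 6.62 FPKM in hypoxia, below the 9.52, 11.2 and 10.4 FPKM of normoxia, a fall of 0.68 ± 0.09 (limma, adjusted p = 3.841e-04). POLE2 was called lower in KYSE410 too with a common sum (-0.29, adjusted p = 0.00938 in limma) and with a length and GC trend removed (-0.24, adjusted p = 0.0221). POLD3 fell by 0.17 in KYSE410 and rose by 0.24 in KYSE150. The POLD3 fall was lost on leaving out KYSE410 hypoxia replicate 3 or either of normoxia replicates 2 and 3 (adjusted p = 0.0542 to 0.0601 in limma) and the sign turned after median-of-ratios scaling (0.064). Its KYSE150 rise was lost without any 1 hypoxia library (adjusted p = 0.0651 to 0.0896 in limma).

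Among the 6 roles, the clamp, its loader, RPA and fragment joining had the largest median difference in response (0.86). In KYSE410, 10 of 11 genes rose and FEN1 fell, with a median log2 change of 0.58. In KYSE150, LIG1 rose, 6 genes fell (PCNA, RFC2, RFC3, RFC4, RPA1 and RPA2) and 4 did not pass, with a median of -0.28. Over all tested genes 31.2% rose and 51.9% fell in KYSE410, with a median of -0.21. In KYSE150 those shares were 23.5% and 38.8%, with a median of -0.13. The KYSE150 falls of PCNA, RFC2 and RPA1 were lost after median-of-ratios scaling. The difference in response was called positive for 9 of 11 and negative for 0 in limma, against 27.3% and 36.0% of all tested genes. FEN1 and RFC1 were called negative with a common sum.

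PCNA (chr20:5114953-5126626), the clamp that tethers polymerases to DNA, had 75.0, 79.4 and 79.8 FPKM in KYSE410 hypoxia and 32.0, 33.4 and 32.2 FPKM in KYSE410 normoxia. In KYSE150 PCNA had 92.9, 92.7 and 97.5 FPKM in hypoxia and 107, 131 and 104 FPKM in normoxia. The groups were apart in both lines in opposite directions, by 1.24 ± 0.04 in KYSE410 (limma, adjusted p = 2.044e-08) and by -0.26 ± 0.10 in KYSE150. The KYSE150 call sat at the threshold (adjusted p = 0.050 in limma) and was lost in most settings, for example after median-of-ratios scaling (-0.10, adjusted p = 0.398) and without normoxia replicate 1 or any 1 hypoxia library (adjusted p = 0.0615 to 0.140). The difference in response of 1.496 ± 0.11 (limma, adjusted p = 3.879e-07) was called in every setting run. PCNA has 3 annotated pseudogenes.

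RFC4 (chr3:186789880-186807058), a small subunit of the clamp loader, gave the largest positive difference in response, 1.53 ± 0.11 (limma, adjusted p = 4.533e-07). It had 48.8, 51.3 and 52.7 FPKM in KYSE410 hypoxia and 32.6, 32.1 and 31.0 FPKM in KYSE410 normoxia. In KYSE150 RFC4 had 58.7, 58.6 and 61.3 FPKM in hypoxia and 103, 128 and 100.3 FPKM in normoxia. Neither pair of groups overlapped, and the fall of 0.87 ± 0.10 in KYSE150 was called in every setting run. RFC4 overlaps EIF4A2 on the opposite strand.

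The other loader subunits followed RFC4 in KYSE410. RFC5 had 22.5, 26.9 and 26.0 FPKM in KYSE410 hypoxia and 15.1, 13.6 and 12.9 FPKM in KYSE410 normoxia, while in KYSE150 its 29.4, 27.9 and 25.3 FPKM in hypoxia and 30.0, 33.9 and 29.4 FPKM in normoxia overlapped. RFC2 rose by 0.49 in KYSE410 and fell by 0.29 in KYSE150, where the call was lost after median-of-ratios scaling (-0.13, adjusted p = 0.238 in limma) and without any 1 hypoxia library (adjusted p = 0.0614 to 0.0858). RFC3 rose by 0.23 in KYSE410, a rise whose sign turned when libraries were scaled to a common sum (-0.0097), and fell by 0.45 in KYSE150. RFC1, the large subunit, rose by 0.10 in KYSE410, turned to -0.14 with the common sum, and changed by 0.27 in KYSE150 without passing (adjusted p = 0.0561 in limma), although it passed without normoxia replicate 3 (0.36, adjusted p = 0.0143). The RFC1 call in KYSE410 was also lost on leaving out either of normoxia replicates 1 and 3 or of hypoxia replicates 2 and 3 (adjusted p = 0.0676 to 0.119 in limma). The sum over the 5 RFC genes was 221 ± 10.3 FPKM in KYSE410 hypoxia and 162 ± 4.39 FPKM in KYSE410 normoxia, and 183 ± 1.64 FPKM in KYSE150 hypoxia and 254 ± 20.8 FPKM in KYSE150 normoxia (SD, n = 3 each).

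The RPA trimer, which coats single-stranded DNA, mirrored the loader. RPA1 had 41.6, 34.5 and 35.9 FPKM in KYSE410 hypoxia and 21.1, 20.6 and 20.3 FPKM in KYSE410 normoxia. In KYSE150 RPA1 had 26.2, 24.5 and 24.6 FPKM in hypoxia and 30.5, 41.9 and 31.2 FPKM in normoxia, apart in the opposite order, with normoxia replicate 2 the highest library. The KYSE150 fall of 0.43 was lost after median-of-ratios scaling (-0.28, adjusted p = 0.0793 in limma) and without hypoxia replicate 2 or 3 (adjusted p = 0.0547 and 0.0518). RPA3 had 34.6, 37.0 and 35.0 FPKM in KYSE410 hypoxia and 24.8, 22.3 and 23.3 FPKM in KYSE410 normoxia. Its KYSE150 levels of 16.9, 15.0 and 16.7 FPKM in hypoxia and 18.0, 24.5 and 17.7 FPKM in normoxia were apart, but the change of -0.28 did not pass (limma, adjusted p = 0.0871), although it passed with a common sum (-0.27, adjusted p = 0.0424). RPA2 rose by 0.21 in KYSE410, where the sign turned with the common sum (-0.020), and fell by 0.57 in KYSE150.

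Of the enzymes that join Okazaki fragments, LIG1, the ligase, rose in both lines. It had 17.5, 16.6 and 15.4 FPKM in KYSE410 hypoxia and 5.52, 4.76 and 5.36 FPKM in KYSE410 normoxia. In KYSE150 LIG1 had 9.94, 10.9 and 10.6 FPKM in hypoxia and 7.02, 6.19 and 6.90 FPKM in normoxia. The groups were apart in each line, and the rise of 1.49 ± 0.07 in KYSE410 exceeded that of 0.58 ± 0.08 in KYSE150 by 0.92 ± 0.10 (limma, adjusted p = 1.318e-05). FEN1, the flap endonuclease that acts just before the ligase, fell by 0.38 ± 0.05 in KYSE410 and changed by -0.17 ± 0.09 in KYSE150 without passing. In KYSE150 it passed with a common sum (-0.15, adjusted p = 0.0475 in limma) and with a length and GC trend removed (-0.16, adjusted p = 0.0184). The FEN1 difference of -0.22 did not pass (adjusted p = 0.0819 in limma) but passed in those settings (-0.45 and -0.34) and without KYSE150 normoxia replicate 2 (-0.31). FEN1 overlaps exons of FADS2 on the same strand and of TMEM258 on the opposite strand, so its level is uncertain.

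**Figure D4:**
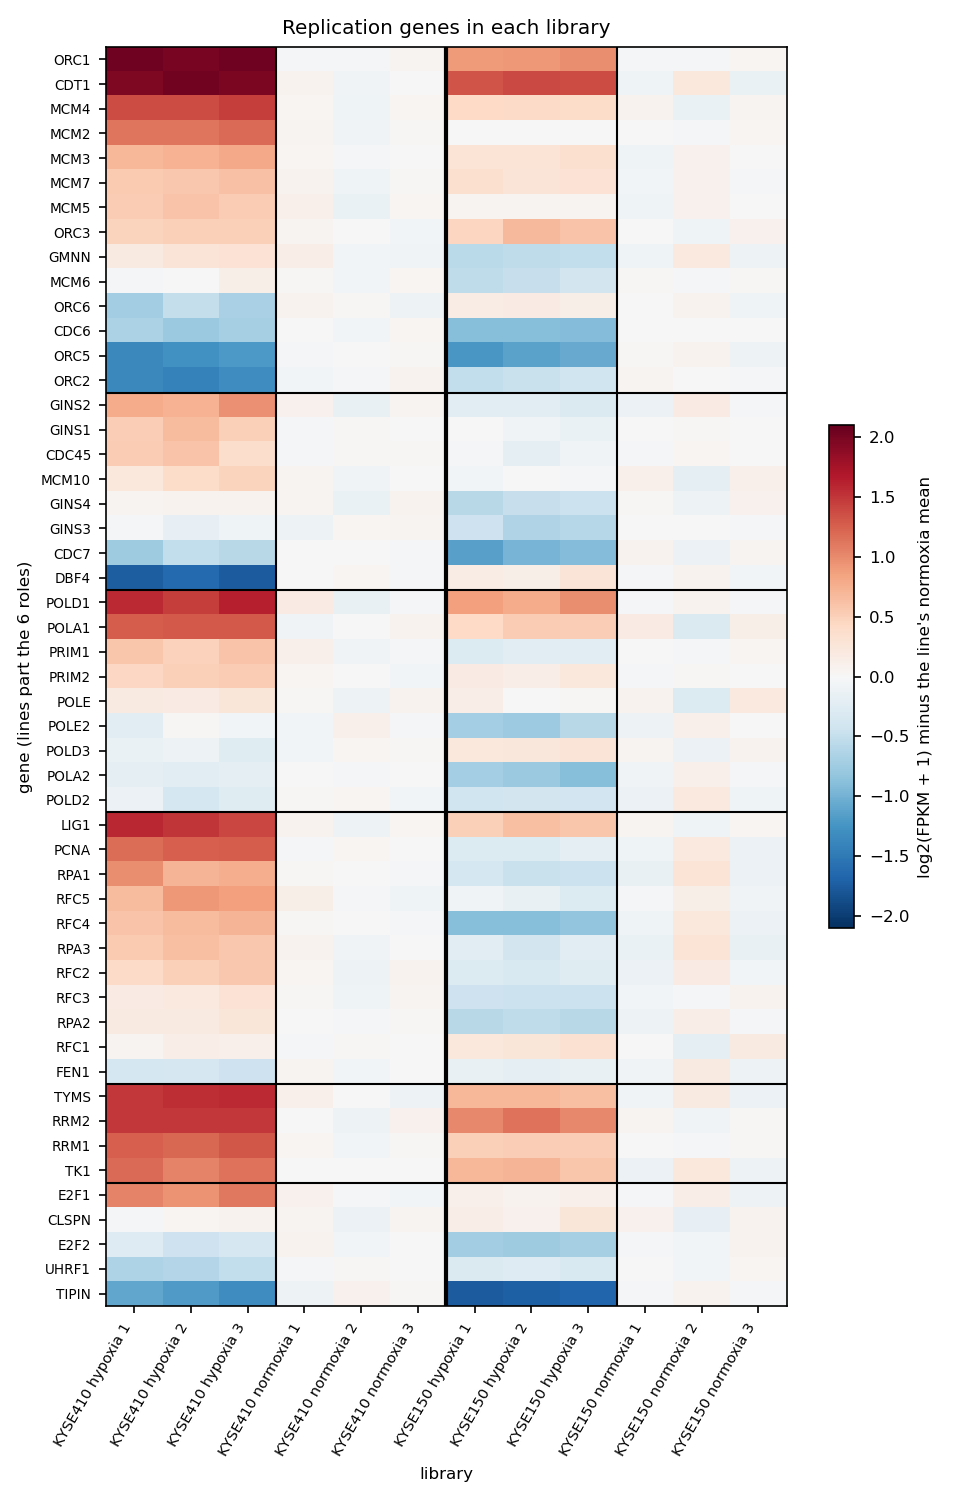
Each row is 1 of the 51 genes, grouped by the 6 roles and ordered by the KYSE410 change, and each column 1 library; colour gives log2(FPKM + 1) minus the normoxia mean of the same line, red for higher. The nucleotide supply block is red in all 6 hypoxia libraries, and the block of clamp, RPA and fragment-joining genes is mostly red in KYSE410 hypoxia and mostly blue in KYSE150 hypoxia.

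Nucleotide supply was the 1 role whose members all rose in both lines, 4 of 4 in each. All 4 rises were larger in KYSE410, although the RRM2 difference did not pass when libraries were scaled to a common sum. Over all tested genes 31.2% rose in KYSE410 and 23.5% in KYSE150, and 27.3% had a positive difference. Of genes tested in both lines, 13.8% rose in each. The sum of the 4 genes was 264 ± 4.06 FPKM in KYSE410 hypoxia and 101 ± 3.28 FPKM in KYSE410 normoxia. In KYSE150 it was 397 ± 10.4 FPKM in hypoxia and 240.5 ± 9.65 FPKM in normoxia (SD, n = 3 each). All 8 changes were called in every setting run.

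RRM2 (chr2:10120698-10131419) encodes the regulated small subunit of ribonucleotide reductase, an enzyme whose radical cofactor is formed with oxygen. It had 88.9, 89.4 and 89.1 FPKM in KYSE410 hypoxia and 31.4, 29.1 and 33.3 FPKM in KYSE410 normoxia. In KYSE150 RRM2 had 111, 121 and 111 FPKM in hypoxia and 56.5, 51.9 and 55.3 FPKM in normoxia. The rises of 1.48 ± 0.05 and 1.05 ± 0.07 (limma, adjusted p = 3.038e-08 and 1.672e-05) differed by 0.43 ± 0.09 (adjusted p = 9.220e-04). RRM2 has 3 annotated pseudogenes, and its exons overlap another annotated gene on the same strand.

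RRM1, the large subunit, had 79.1, 76.6 and 81.7 FPKM in KYSE410 hypoxia and 33.7, 31.2 and 33.0 FPKM in KYSE410 normoxia. In KYSE150 RRM1 had 117, 118 and 119 FPKM in hypoxia and 83.1, 80.1 and 83.8 FPKM in normoxia. Groups were apart in each line. The level of RRM2 over that of RRM1 was 1.09 to 1.17 in KYSE410 hypoxia against 0.930 to 1.01 in KYSE410 normoxia, and 0.933 to 1.03 in KYSE150 hypoxia against 0.648 to 0.680 in KYSE150 normoxia.

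TYMS (chr18:657604-673578), which makes thymidylate and is the target of fluoropyrimidine drugs, had 48.3, 50.7 and 51.1 FPKM in KYSE410 hypoxia and 17.8, 16.7 and 15.3 FPKM in KYSE410 normoxia. In KYSE150 TYMS had 69.5, 69.2 and 66.6 FPKM in hypoxia and 40.4, 48.7 and 38.8 FPKM in normoxia. The changes were 1.54 ± 0.06 and 0.68 ± 0.09 with no overlap. TYMS overlaps ENOSF1 and TYMSOS on the opposite strand. TK1, the salvage kinase for thymidine, had 48.3, 43.7 and 46.6 FPKM in KYSE410 hypoxia and 20.9, 20.6 and 20.7 FPKM in KYSE410 normoxia. In KYSE150 TK1 had 99.2, 100.1 and 91.4 FPKM in hypoxia and 55.5, 71.0 and 56.5 FPKM in normoxia, again apart.

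**Figure D5:**
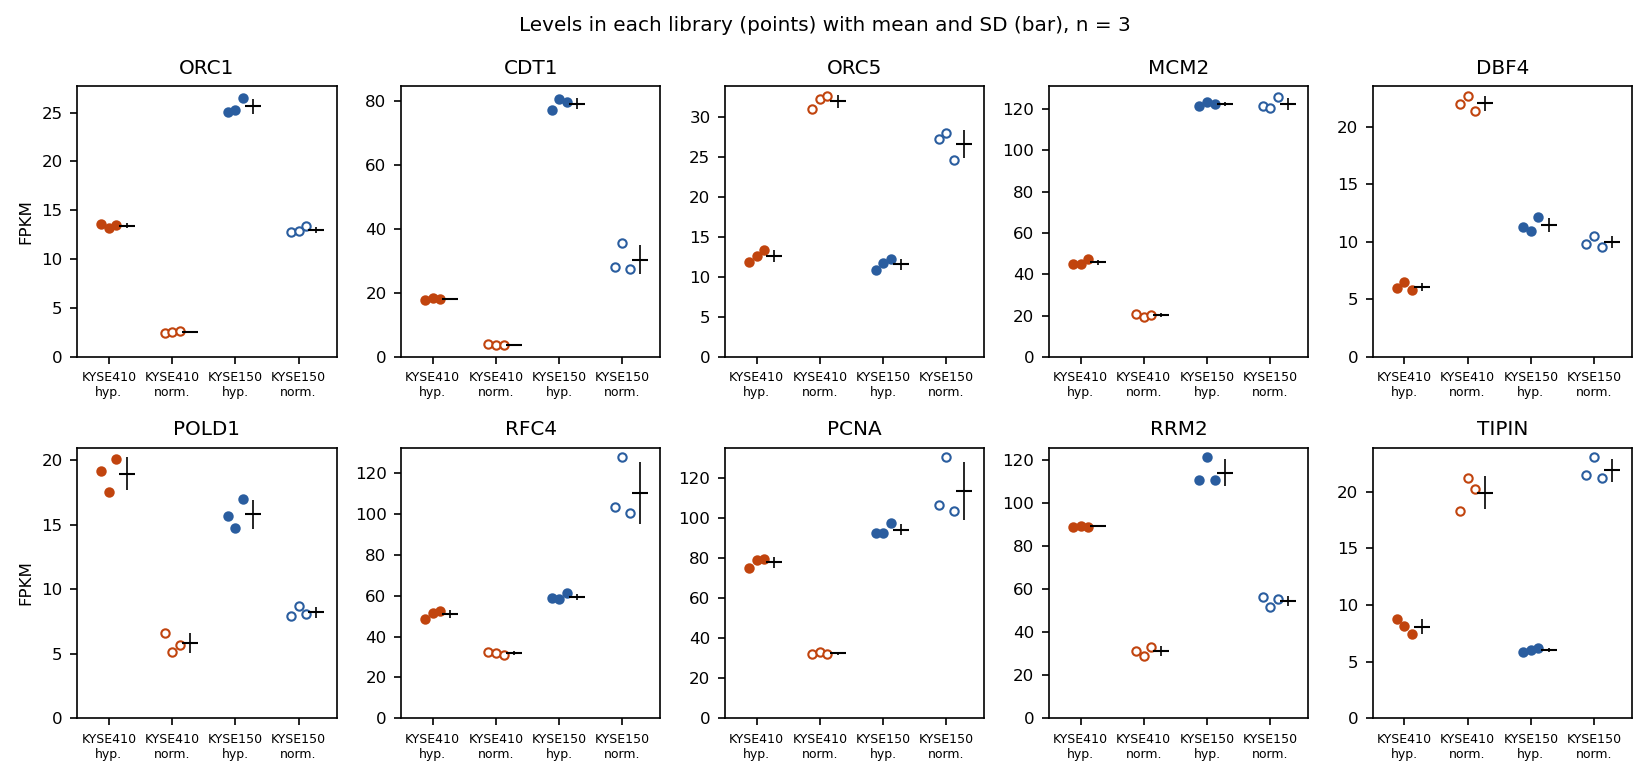
FPKM in each library (points) with mean and SD (cross) for 10 genes, in the order KYSE410 hypoxia, KYSE410 normoxia, KYSE150 hypoxia, KYSE150 normoxia; filled points are hypoxia and each axis starts at 0. ORC1, CDT1, POLD1 and RRM2 stand higher in hypoxia in both lines, ORC5 and TIPIN lower in both, RFC4 and PCNA are higher in KYSE410 hypoxia and lower in KYSE150 hypoxia, DBF4 is lower in KYSE410 hypoxia, and MCM2 overlaps in KYSE150.

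Among the S-phase regulators TIPIN and UHRF1 fell in both lines, E2F2 fell in KYSE150 and E2F1 rose in KYSE410. Over all tested genes 51.9% fell and 31.2% rose in KYSE410, and 38.8% fell and 23.5% rose in KYSE150. In KYSE410, 1 of 4 tested genes rose and 2 fell, and in KYSE150 3 of 5 fell and 0 rose in limma, although E2F1 was called higher without normoxia replicate 2 (0.17, adjusted p = 0.00852 in limma). TIPIN (chr15:66336206-66386746), which stabilises stalled forks together with TIMELESS, had 8.74, 8.12 and 7.41 FPKM in KYSE410 hypoxia and 18.3, 21.2 and 20.2 FPKM in KYSE410 normoxia. In KYSE150 TIPIN had 5.85, 5.99 and 6.23 FPKM in hypoxia and 21.5, 23.0 and 21.2 FPKM in normoxia. The falls of 1.20 ± 0.07 and 1.70 ± 0.07 were called in every setting run, and the KYSE150 fall was the larger (difference 0.50 ± 0.10, limma, adjusted p = 9.669e-04), a difference that no longer passed with a length and GC trend removed.

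E2F1, an activating E2F factor, had 8.08, 7.47 and 8.49 FPKM in KYSE410 hypoxia and 3.69, 3.29 and 3.25 FPKM in KYSE410 normoxia. In KYSE150 E2F1 had 33.4, 32.9 and 33.3 FPKM in hypoxia and 30.1, 34.3 and 28.9 FPKM in normoxia, which overlapped. The rise of 1.03 ± 0.07 in KYSE410 and the change of 0.094 ± 0.08 in KYSE150 differed by 0.94 ± 0.10 (limma, adjusted p = 9.916e-06). E2F2, a second activating factor, was lower in hypoxia in both lines. It had 0.454, 0.3004 and 0.371 FPKM in KYSE410 hypoxia and 0.834, 0.689 and 0.732 FPKM in KYSE410 normoxia, under the mean of 1 FPKM needed for the test. In KYSE150 E2F2 had 3.65, 3.604 and 3.75 FPKM in hypoxia and 6.59, 6.39 and 7.15 FPKM in normoxia, a fall of 0.72 ± 0.08 (limma, adjusted p = 1.427e-04). The ratio of hypoxia to normoxia was 0.499 in KYSE410 and 0.547 in KYSE150. The called difference of 0.37 fell away with a pseudocount of 0.1 (0.0020, adjusted p = 0.993 in limma).

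UHRF1, which recruits maintenance DNA methylation to replicated DNA, had 7.46, 7.59 and 8.28 FPKM in KYSE410 hypoxia and 11.98, 12.5 and 12.2 FPKM in KYSE410 normoxia. In KYSE150 UHRF1 had 22.2, 22.8 and 21.8 FPKM in hypoxia and 27.8, 26.6 and 28.7 FPKM in normoxia. Both falls, 0.59 and 0.30, had groups apart, and that in KYSE150 was lost after median-of-ratios scaling (-0.15, adjusted p = 0.0888 in limma). CLSPN, the claspin gene of the replication checkpoint, averaged 2.81 ± 0.147 FPKM in KYSE410 hypoxia and 2.74 ± 0.275 FPKM in KYSE410 normoxia. In KYSE150 it averaged 6.35 ± 0.406 FPKM in hypoxia and 5.61 ± 0.673 FPKM in normoxia (SD, n = 3 each), and it was called in neither line. It was called higher in both after median-of-ratios scaling (0.21 in KYSE410 and 0.29 in KYSE150) and with a length and GC trend removed (0.19 in each).

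Beyond the 51 genes, 46 other replication genes were listed. In KYSE410, 24 of 44 tested rose and 12 fell (54.5% and 27.3%), against 31.2% and 51.9% of all genes. In KYSE150, 13 of 46 rose and 18 fell (28.3% and 39.1%), near the 23.5% and 38.8% of all genes. The medians were 0.24 in KYSE410 and -0.032 in KYSE150, against -0.21 and -0.13 over all genes. CTPS1, which makes CTP, averaged 7.92 ± 0.996 FPKM in KYSE410 hypoxia and 29.7 ± 3.39 FPKM in KYSE410 normoxia, and 18.0 ± 0.434 FPKM in KYSE150 hypoxia and 63.7 ± 2.63 FPKM in KYSE150 normoxia (SD, n = 3 each). Unlike the 4 nucleotide supply genes above, it fell in both lines, by 1.78 and 1.76. CDC25A, the phosphatase that activates CDK2, fell by 1.72 in KYSE410 and 1.14 in KYSE150. POLE4, an accessory subunit of polymerase epsilon, rose by 1.42 in KYSE410, where E2F3 fell by 1.33. In KYSE150, TOP2A, which untangles replicated DNA, rose by 1.85 and CHTF8, of an alternative clamp loader, fell by 1.397.

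Genes of other cell cycle phases moved beside these values. MKI67, a proliferation marker, averaged 10.4 ± 0.934 FPKM in KYSE410 hypoxia and 28.5 ± 0.667 FPKM in KYSE410 normoxia, and 46.8 ± 1.49 FPKM in KYSE150 hypoxia and 15.2 ± 6.71 FPKM in KYSE150 normoxia. CCNB1, the mitotic cyclin B1, fell by 0.95 in KYSE410 and rose by 1.20 in KYSE150, whereas CCNA2, cyclin A2, rose by 0.68 in KYSE410 and 1.53 in KYSE150. The kinase inhibitor CDKN1A rose by 0.48 in KYSE410 and 1.24 in KYSE150, and CDKN1B by 0.27 and 0.65. The part of cell cycle position in the replication gene changes was not tested.

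The changes of the 51 genes had little relation to their transcript length, with a Spearman rho of -0.085 in KYSE410 and 0.16 in KYSE150, against -0.27 and 0.059 over all tested genes with a length. Each rho runs across genes, not across samples. In every setting run, 36 of 50 calls in KYSE410 were equal (27 higher and 9 lower), as were 28 of 51 in KYSE150 (12 higher, 15 lower and 1 not called) and 35 of 51 differences in response (30 positive, 4 negative and 1 not called).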

How the data were processed

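The authors deposited 1 table of FPKM per line. The unit was inferred from the values, and FPKM multiplied by transcript length summed to 0.919 to 1.02 times the total that the unit implies. HISAT2 2.2.1, fastp 0.22.0, bcl2fastq 2.20 and the build hg38 are named, without roles, per the submitters' processing notes. No source used here gives the quantifier, annotation or strandedness. Values showed no steps of whole reads, so no counting interval is given.

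Within each line, genes averaging 1 FPKM or more were tested on log2(FPKM + 1) with limma 3.58.1 in R 4.3.3, using its mean trend, and p-values were adjusted over all genes tested. The difference in response came from a joint fit of 12 libraries. No test compared levels between the separately deposited tables. Alternatives changed scaling, pseudocount, filters, trend, threshold, replicate block and length and GC, and left out each library; each fit was tested on simulated data. Python 3.11.15, numpy 2.4.6, pandas 2.3.3, matplotlib 3.10.9 and GENCODE 29 were used.

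The genes, lists and words were chosen with earlier results of these data known. Promoters to print were chosen after values and words were seen. Values in every library are given for up to 6 genes per role, by the largest called change in either line or the largest called difference in response, and up to 4 of the 46 other genes are named per line by the same measure.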

Additional observations from a re-analysis of the deposited data

Results flagged for a closer look

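The response to hypoxia differed between KYSE410 and KYSE150 for 44 of the 51 genes, by the limma interaction at an adjusted p under 0.05. Each value is the log2 change in KYSE410 minus that in KYSE150, on log2(FPKM + 1).

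Among licensing genes the difference was 1.15 for MCM2, 1.10 for ORC1, 0.99 for MCM4, 0.80 for GMNN, 0.62 for CDT1, 0.50 for MCM5 and 0.50 for MCM6. It was 0.44 for MCM3, 0.27 for MCM7, 0.18 for CDC6, -0.78 for ORC6 and -0.89 for ORC2. Among firing genes it was 1.07 for GINS2, 0.63 for GINS1, 0.60 for CDC45, 0.57 for GINS4, 0.46 for GINS3, 0.39 for CDC7, 0.38 for MCM10 and -1.89 for DBF4. Among polymerase genes it was 0.81 for PRIM1, 0.79 for POLA1, 0.69 for POLD1, 0.59 for POLA2, 0.59 for POLE2, 0.31 for PRIM2 and -0.41 for POLD3.

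For the clamp, its loader, RPA and the ligase it was 1.53 for RFC4, 1.496 for PCNA, 1.25 for RPA1, 0.98 for RFC5, 0.92 for LIG1, 0.86 for RPA3, 0.78 for RFC2, 0.78 for RPA2 and 0.67 for RFC3. For nucleotide supply it was 0.86 for TYMS, 0.74 for RRM1, 0.45 for TK1 and 0.43 for RRM2. For the regulators it was 0.94 for E2F1, 0.50 for TIPIN, 0.37 for E2F2 and -0.29 for UHRF1. The E2F2 difference was 0.0020 with a pseudocount of 0.1 and was then not called (limma, adjusted p = 0.993), and E2F2 averaged under 1 FPKM in KYSE410. With a common sum of FPKM the calls for CDC6, MCM7, MCM10, GINS3, CDC7, PRIM2, RRM2 and E2F2 were lost, and those for PRIM2, UHRF1 and TIPIN were lost with a length and GC trend removed. Over all genes tested, 63.3% had a called difference.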

How the results depend on the processing

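The median change in KYSE410 was 0.73 after median-of-ratios scaling, 0.26 with a common sum of FPKM and 0.42 with a length and GC trend removed, against 0.49 as reported. Over all tested genes these medians were 0.0021, -0.42 and -0.20, against -0.21. The replication gene median in KYSE150 was 0.0495 after median-of-ratios scaling, against -0.10, and the all-gene median was 0.0008, against -0.13. With a common sum the difference in response was positive for 31 genes and negative for 9, with a median of 0.37. Over all genes 2353 were then positive and 6024 negative, with a median of -0.29. Leaving out 1 library at a time gave 31 to 33 higher, 11 to 12 lower and a median of 0.48 to 0.51 in KYSE410. It gave 13 to 18 higher, 18 to 22 lower and a median of -0.13 to -0.06 in KYSE150, and 37 to 40 positive, 5 to 6 negative and a median of 0.52 to 0.58 for the difference. With the replicate number as a block, 33 rose and 12 fell in KYSE410, 14 and 20 in KYSE150, and 38 differences were positive and 5 negative. Deviations of same-numbered libraries correlated at -0.069 to 0.084, and those of differently numbered libraries at -0.097 to 0.11. With 3 libraries per group and a spread that may be technical, this cannot tell whether the numbers pair the samples.

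Signs turned for these genes, and the cause was not tested. After median-of-ratios scaling KYSE410 gave 0.11 for GINS3, 0.11 for POLE2, 0.064 for POLD3, 0.012 for POLA2 and 0.0029 for POLD2. KYSE150 then gave 0.16 for MCM2, 0.12 for MCM10, 0.072 for GINS1 and 0.0495 for CDC45, and the difference for ORC3 was 0.018. With a common sum KYSE410 gave -0.20 for MCM6, -0.15 for CLSPN, -0.14 for RFC1, -0.12 for GINS4, -0.020 for RPA2, -0.0097 for RFC3 and -0.0029 for POLE. KYSE150 then gave 0.012 for MCM2, and the differences were -0.096 for POLD2, -0.073 for POLE and -0.048 for CDC6. With a length and GC trend removed KYSE410 gave -0.0047 for GMNN, and KYSE150 gave -0.12 for POLE, -0.060 for MCM5, 0.042 for GINS1 and 0.025 for MCM10. Over the fits without 1 library, KYSE410 ranged from -0.035 to 0.060 for CLSPN, -0.0042 to 0.10 for GINS4 and -0.0098 to 0.063 for MCM6, and KYSE150 from -0.13 to 0.027 for MCM10, -0.012 to 0.018 for MCM2 and -0.086 to 0.17 for POLE. The 3 libraries per group limit the precision, and depth is unknown.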
